A study of Mus musculus with 4 samples.

Results

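Histone genes encode the proteins around which DNA is wound, and 74 of the 18854 genes measured in cultured mouse cortical neurons carried a histone symbol of the set described here. They were taken by a rule on symbols that uses no values, although earlier results of these data were known when it was chosen. Of these, 65 were clustered genes (the H2ac, H2bc, H3c and H4c genes and H1f1 to H1f5) and 9 were replacement variants (H1f0, H1f10, H2az1, H2az2, H2aj, Macroh2a1, Macroh2a2, H3f3a and H3f3b). H2ax, which the same rule names, was not analysed here. RNA was sequenced from 4 libraries of wild-type neurons kept for 15 days in vitro. The p53 activator group, of 2 libraries, had then received Nutlin-3, a small molecule that frees p53 from its inhibitor Mdm2, for 2 days. The DMSO group, also of 2 libraries, was named for the solvent in the sample titles, although its treatment label read as untreated. The labels gave no dose of Nutlin-3. Nor did they say that a group's libraries were grown as independent cultures. The p-values therefore reflect a spread between libraries, mostly pooled over genes of like level, part of which may be technical.

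Most histone protein is made from the clustered, replication-dependent genes, which are transcribed when a cell copies its DNA. Their mRNAs usually end in a short stem-loop in place of a poly(A) tail, and the stem-loop binding protein, encoded by Slbp, processes, exports and stabilises them. Replacement variants are encoded by genes outside the clusters, give polyadenylated mRNAs and are made throughout the cell's life. Neurons no longer divide, and they come to rely on replacement variants such as H3.3, while some clustered genes also give polyadenylated mRNAs in differentiated cells. The libraries were made from total RNA depleted of ribosomal RNA, a method that does not select for poly(A), so both kinds of mRNA could be counted.

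The stem-loop that sets the clustered class apart was found in the annotated transcripts of 42 of the 62 clustered members matched to GENCODE vM21, and in 0 of the 9 replacement members. It was searched on the transcript strand as a stem of 6 paired bases that opens with GG and closes with T before a loop of 4 bases, with each stem base paired to its partner (A with T, G with C or G with T). Of 13904 other genes in the table with a coding transcript, 6.06% held a match anywhere, and 0.302% held one in the last 120 bases. Among the 62 clustered members these shares were 67.7% and 37.1% (23 members). The other matches lay farther from the annotated end, as in H1f3 (4884 bases before it). For clustered members without a match, it says only that these letters were not in the annotated transcript. Some of those transcripts end at the coding sequence and leave no room for a stem-loop after it. Examples are H2bc18 (381 bases, 378 of them coding) and H4c12 (312 and 309). The forms that recurred are shown because they are what the clustered mRNAs share beyond their names, with the stem in capitals and the loop in lower case.
The form of 24 members, among them H1f2, H1f4, H2ac18, H2bc8 and H3c4: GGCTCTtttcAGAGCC
The form of 6 H4 members, among them H4c3, H4c4 and H4c8: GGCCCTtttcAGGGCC
The form of 5 members, among them H2bc12, H3c6 and H3c7: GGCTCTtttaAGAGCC
The form of H4c9 and H4c14: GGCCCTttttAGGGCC
The form of H4c2 and H4c11: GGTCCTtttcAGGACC
The stems of the H4 genes differed from the GGCTCT stem shared by all matched H1, H2A, H2B and H3 members.

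Upstream sequences also differed between the classes. In the 250 bases before the annotated start (RefSeq, GRCm38.p6), on either strand, CCAAT was found in 47 of 57 clustered members with a sequence, in 5 of 9 replacement members and in 37.5% of all genes of that table. TATAAA was found in 28 of the 57, in 1 of the 9 and in 14.3% of all genes. ATTTGCAT, the octamer that the transcription factor Oct-1 binds and that is typical of H2B promoters, was found in 13 of the 57, of which 7 were H2B and 6 were H2A genes, in 1 of the 9 and in 1.81% of all genes. A match is a description of the letters and does not show a working site. The last 120 bases upstream are printed for the replacement gene that rose, the replacement gene that fell and the clustered H2B gene with the highest level among those with the octamer, with matches in capitals.
H2az1, chr3:137864367-137864486, plus strand: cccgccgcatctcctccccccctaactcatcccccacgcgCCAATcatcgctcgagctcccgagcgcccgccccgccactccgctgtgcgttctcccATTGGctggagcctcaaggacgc
Macroh2a1, chr13:56135551-56135670, minus strand: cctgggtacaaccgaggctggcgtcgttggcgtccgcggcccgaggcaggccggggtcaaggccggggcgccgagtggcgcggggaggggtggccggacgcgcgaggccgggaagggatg
H2bc18, chr3:96269580-96269699, plus strand: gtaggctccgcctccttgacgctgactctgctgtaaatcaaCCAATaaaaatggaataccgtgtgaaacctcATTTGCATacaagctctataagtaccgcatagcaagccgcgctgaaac
H2az1 held CCAAT once on each strand (as ATTGG on the strand shown), H2bc18 held CCAAT and the octamer, and the Macroh2a1 stretch held none of the searched letters.

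The libraries rested on 19065197 and 17716272 counted reads with the p53 activator and on 14584247 and 14968028 with DMSO. Values are CPM, the reads of a gene scaled to a common library total, and a CPM value is not corrected for gene length, so levels were compared between libraries and not between genes. Mitochondrially encoded RNAs took 8.98% and 10% of reads in listed genes with the activator and 15.7% and 14.3% with DMSO, and nuclear protein-coding genes took 84.4% and 83.9% with the activator and 74.9% and 77.2% with DMSO. Each rise of an mRNA in CPM stands beside that shift. Of 8 neuron markers, 6 rose and 1 (Rbfox3) fell. Among nuclear protein-coding genes 20.9% were called higher by limma and 7.34% lower, and among all genes 16.9% and 16.3%. The 8 neuron markers summed to 7400 and 7530 CPM with the activator and 6420 and 7190 CPM with DMSO. Map2, the largest part of that sum, was not called, at 3560 and 3600 CPM with the activator and 3600 and 4120 CPM with DMSO. The 6 astrocyte markers summed to 1020 and 994 CPM with the activator and 937 and 909 CPM with DMSO, and the astrocyte transporter Slc1a3, the only one with an unadjusted p under 0.05, was not called by limma (log2 fold change 0.19, adjusted p = 0.0733). The 3 microglial markers measured summed to 3.67 and 2.88 CPM with the activator and 4.53 and 4.34 CPM with DMSO. Of these, P2ry12 was lower at an unadjusted p under 0.05 but not called (-0.50, limma adjusted p = 0.0547), while Csf1r was at 0.15. The 6 oligodendrocyte-lineage markers summed to 190 and 187 CPM with the activator and 171 and 165 CPM with DMSO, with 0 called by limma and 3 (Olig1, Pdgfra and Cspg4) higher at an unadjusted p under 0.05. Of the 3 endothelial and mural markers, Kdr rose (0.57, limma adjusted p = 0.0364), at 1.10 and 1.24 CPM with the activator and 0.343 and 0.601 CPM with DMSO, and their sum was 5.87 and 7.06 CPM with the activator and 7.13 and 4.94 CPM with DMSO. The 3 fibroblast markers measured summed to 13 and 14.2 CPM with the activator and 13.9 and 15.2 CPM with DMSO. Of these, Col1a1 was lower at an unadjusted p under 0.05 but not called (-0.43, limma adjusted p = 0.0965), while Dcn was at -0.03. In RNA from mixed cultures, fewer cells of a type and less RNA per cell cannot be told apart, and the part of these markers in the histone results was not tested.

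Nutlin-3 libraries were set against DMSO libraries to see which histone mRNAs differ between them. Few did. Among the 67 members that reached 1 CPM in 2 or more libraries, H2az1 rose, Macroh2a1 and H3c13 fell, and the other 64 did not pass the test (limma on log2(CPM + 1), Benjamini-Hochberg adjusted p under 0.05 over 16654 genes). Of all genes tested, 16.9% were called higher and 16.3% lower, together 33.2%, and of nuclear protein-coding genes 20.9% were called higher and 7.34% lower, together 28.2%. The groups did not overlap for 64.9% of nuclear protein-coding genes (44.6% higher and 20.2% lower).

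**Figure D1:**
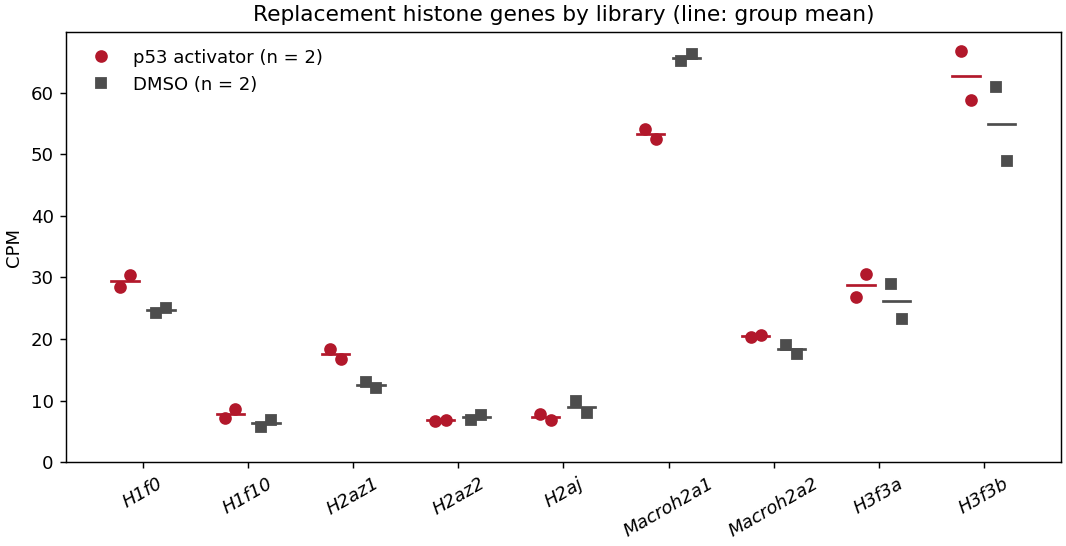
CPM of the 9 replacement histone genes in each library, with p53 activator libraries as circles and DMSO libraries as squares and the group mean as a line (n = 2 each). H2az1 lies above DMSO and Macroh2a1 below it in both activator libraries, while the H3f3a and H3f3b groups overlap.

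All 9 replacement members passed the limit on low values, and 1 rose and 1 fell. H2az1 encodes the essential H2A.Z variant, which sits in the nucleosomes beside transcription start sites. It stood at 18.4 and 16.8 CPM in the activator libraries and at 13 and 12.1 CPM in the DMSO libraries. Both activator libraries were above both DMSO libraries, a log2 difference of 0.45 ± 0.13 (SE, limma adjusted p = 0.00343). That call was lost when reads were scaled to the total of nuclear protein-coding genes (0.32, adjusted p = 0.0678), in DESeq2 (0.46, adjusted p = 0.0503) and without p53 activator replicate 1 (0.40, adjusted p = 0.0532).

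H2az2 encodes the second H2A.Z isoform, and its coding sequence matched that of H2az1 at 79.2% of 384 bases. It stood at 6.66 and 6.89 CPM with the activator and at 6.86 and 7.62 CPM with DMSO. The groups overlapped, and the log2 fold change was -0.08 with a 95% interval of -0.40 to 0.24. H2az1 and H2az2 together came to 25 and 23.7 CPM with the activator and 19.9 and 19.7 CPM with DMSO. The difference between the responses of both genes was not tested.

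Macroh2a1 encodes macroH2A1, an H2A variant with a large globular macrodomain that is found in silent chromatin such as the inactive X chromosome. It stood at 54.1 and 52.5 CPM in the activator libraries and at 65.1 and 66.3 CPM in the DMSO libraries. Both activator libraries were below both DMSO libraries, a log2 difference of -0.30 ± 0.08 (SE, limma adjusted p = 0.00407). The fall was called under 15 of 16 alternatives, all but the fit with 1 prior spread for genes at all levels (adjusted p = 0.0850). An annotated noncoding gene, Gm31485, overlaps Macroh2a1 and also fell, with 6.35 and 4.57 CPM in the activator libraries and 11.5 and 7.22 CPM in the DMSO libraries. Whether the authors' counting used strand is not given in the sources used here, so reads of the pair may be mixed.

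Macroh2a2, the second macroH2A gene, stood at 20.4 and 20.6 CPM with the activator and at 19.1 and 17.5 CPM with DMSO. The activator libraries were the higher ones, but the log2 fold change of 0.16 ± 0.12 (SE) did not pass the test (limma adjusted p = 0.312). Macroh2a2 also overlaps other annotated genes, among them Aifm2. H2aj encodes H2A.J, a variant known in human fibroblasts to build up in senescence. It stood at 7.82 and 6.77 CPM with the activator and at 9.87 and 7.95 CPM with DMSO, with a log2 fold change of -0.25 and a 95% interval of -0.57 to 0.06. Its groups did not overlap, yet the difference did not pass the test (limma adjusted p = 0.215).

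The genes for H3.3, the H3 variant put into chromatin outside DNA replication, were H3f3a and H3f3b. H3f3b stood at 66.8 and 58.8 CPM in the activator libraries and at 61 and 49.0 CPM in the DMSO libraries. H3f3a stood at 26.9 and 30.6 CPM in the activator libraries and at 28.9 and 23.3 CPM in the DMSO libraries. In both genes the groups overlapped. The log2 fold changes were 0.19 ± 0.09 (SE, limma adjusted p = 0.0846) for H3f3b and 0.14 ± 0.11 (SE, limma adjusted p = 0.322) for H3f3a. H3f3b was called higher without DMSO replicate 1 (0.35, adjusted p = 0.0214) and without p53 activator replicate 2 (0.28, adjusted p = 0.0338). Its log2 fold change was 0.04 without DMSO replicate 2, 0.10 without p53 activator replicate 1 and 0.05 on the protein-coding total. The genes differ at 95 of 408 coding bases although both encode H3.3.

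The replacement linker histones bind the DNA between nucleosomes. H1f0, which encodes the H1.0 protein of differentiated cells, stood at 28.5 and 30.4 CPM with the activator and at 24.3 and 25 CPM with DMSO. H1f10 stood at 7.19 and 8.58 CPM with the activator and at 5.76 and 6.88 CPM with DMSO. Both genes were higher in both activator libraries than in either DMSO library, and neither passed the test, with log2 fold changes of 0.25 ± 0.10 (SE, limma adjusted p = 0.0569) and 0.28 ± 0.16 (SE, limma adjusted p = 0.185). Scaled to the total of nuclear protein-coding genes, the log2 fold change of H1f0 was 0.10 and that of H1f10 was 0.15.

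Among the clustered genes, 58 of 65 passed the limit on low values, 0 rose and 1 fell. At an unadjusted p under 0.05, 3 were higher and 2 were lower in limma. edgeR on whole reads called 0 higher and 1 lower, with 0 higher at an unadjusted p under 0.05, and DESeq2 called 0 in either direction, with 0 higher and 1 lower at an unadjusted p under 0.05. The 1 call made up 1.72% of the clustered members tested. Protein-coding genes in the same range of mean CPM (from 0.97 to 23.4) were called higher in 5.05% of cases and lower in 7.92%. The groups did not overlap for 15 clustered members that were higher with the activator and 6 that were lower, together 36.2%. In that range 52.8% of protein-coding genes did not overlap (26.7% higher and 26.1% lower), and over all genes tested the share was 67.6% (36.6% higher and 30.9% lower).

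**Figure D2:**
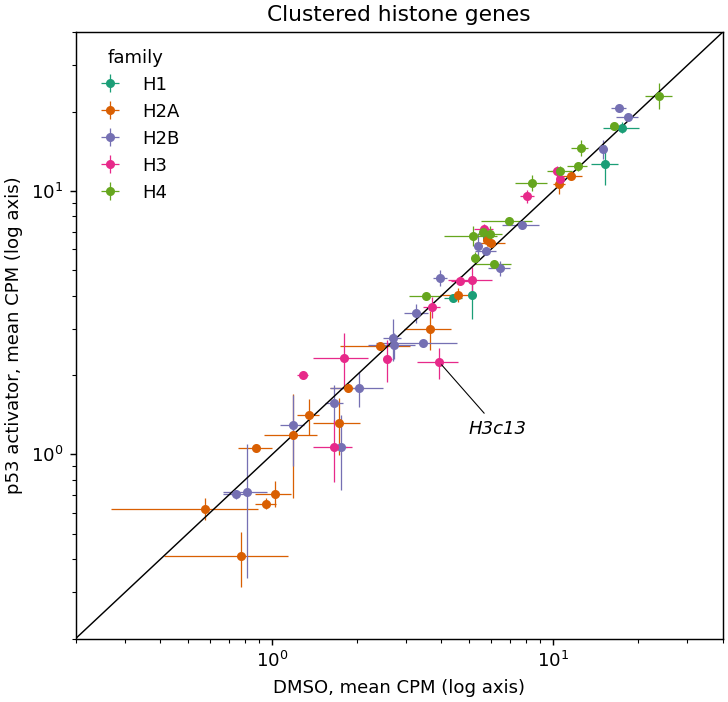
Mean CPM of each clustered histone gene with the p53 activator (vertical log axis) against DMSO (horizontal log axis), coloured by family, with bars from the lower to the higher of the 2 libraries of a group and the line of equal values. The points lie along the line from under 1 CPM to H4c4 near 23 CPM, and H3c13 lies below it; H2ac1, with 0 reads in 3 libraries, is not drawn.

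The median log2 fold change of the clustered members was 0.03, with a range of -0.60 to 0.40, and 33 of 58 (56.9%) were positive. Of nuclear protein-coding genes 64.1% were positive, and of those in the same CPM range 51.6%. The median was 0.09 over all nuclear protein-coding genes and 0.01 over those in the same CPM range. The median SE of a clustered member was 0.17, beside 0.16 for protein-coding genes in the same CPM range. The 95% interval lay within what a 2-fold rise or fall of the gene's own DMSO level would show for 51 of the 58, and within what a 1.5-fold change would show for 28. The intervals of the other members, H3c13 among them, reach past those sizes. All these intervals rest mostly on the spread of genes at like levels, and less on each gene's own libraries.

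Summed over all 65 genes, clustered histone RNA came to 389 and 403 CPM in the activator libraries and to 416 and 354 CPM in the DMSO libraries. Both activator libraries lay between the DMSO libraries. The means were 396 ± 10.5 CPM with the activator and 385 ± 43.7 CPM with DMSO (SD, n = 2 each), so the groups differed by less than the spread within DMSO. The sum of the 9 replacement genes was 237 and 232 CPM with the activator and 234 and 216 CPM with DMSO. With CPM taken over reads of nuclear protein-coding genes only, the clustered sum was 461 and 482 with the activator and 557 and 460 with DMSO.

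**Figure D3:**
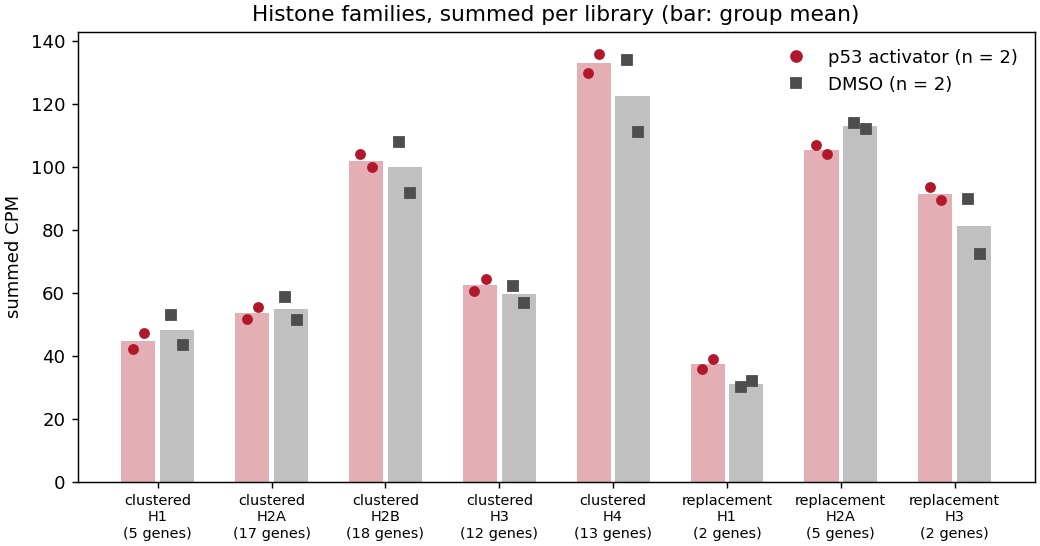
Summed CPM of each histone family per library, p53 activator as circles and DMSO as squares, with the group mean as a bar (n = 2 each). In the 5 clustered families the activator points lie within or near the range of the DMSO points, whose spread is wide. The 2 replacement H1 genes together stand higher, at 35.7 and 39.0 CPM with the activator and at 30.1 and 31.9 CPM with DMSO. The 5 replacement H2A genes together stand lower, at 107 and 104 CPM with the activator and at 114 and 112 CPM with DMSO. The replacement H3 groups overlap.

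Within the DMSO group the clustered genes moved together. Replicate 1 was above replicate 2 for 50 of the 58 members (86.2%), beside 58.9% of protein-coding genes in the same CPM range. For the replacement members it was above for 5 of 9. In the activator group replicate 1 was above replicate 2 for 20 of the 58, beside 61.3% of those protein-coding genes. The sign of the clustered median therefore followed the DMSO library used: it was 0.11 without DMSO replicate 1 and -0.07 without DMSO replicate 2. On the total of nuclear protein-coding genes it was -0.09, where the median of all genes was -0.10.

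H3c13, an H3 gene of the cluster on chromosome 3, was the clustered member that fell. It stood at 1.94 and 2.54 CPM in the activator libraries and at 4.59 and 3.27 CPM in the DMSO libraries. The groups did not overlap, and the log2 fold change was -0.60 ± 0.20 (SE, limma adjusted p = 0.0122). The call was lost in DESeq2 (adjusted p = 0.106), with 1 prior spread for genes at all levels (adjusted p = 0.0553), without DMSO replicate 1 (-0.41, adjusted p = 0.272) and without p53 activator replicate 1 (-0.47, adjusted p = 0.128).

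Near-identical copies of H3c13 lie on the same chromosome. Its coding sequence differed from those of H3c14 and H3c15 at 1 of 408 bases each, and H3c14 and H3c15 were identical there. H3c15 stood at 6.77 and 7.51 CPM with the activator and at 6.10 and 5.21 CPM with DMSO, the opposite order to H3c13, and H3c14 at 5.14 and 4.06 CPM with the activator and at 6.03 and 4.21 CPM with DMSO. The 3 genes together came to 13.8 and 14.1 CPM with the activator and 16.7 and 12.7 CPM with DMSO, and those groups overlapped. How the authors' counting divided reads among copies is not given in the sources used here, so the value of H3c13 alone is uncertain.

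The same limit touches other clustered members. H2ac18 and H2ac19 have identical coding sequences and together stood at 17.6 and 18.3 CPM with the activator and at 18.5 and 16.3 CPM with DMSO. H4c17 and H4c18 are also identical there. Within 5 differing bases of another member of the family were 11 of 17 H2A, 6 of 15 H2B, 11 of 12 H3 and 4 of 12 H4 genes compared. Median identity between clustered members of a family ran from 94.65% for H4 to 97.6% for H2B.

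**Figure D4:**
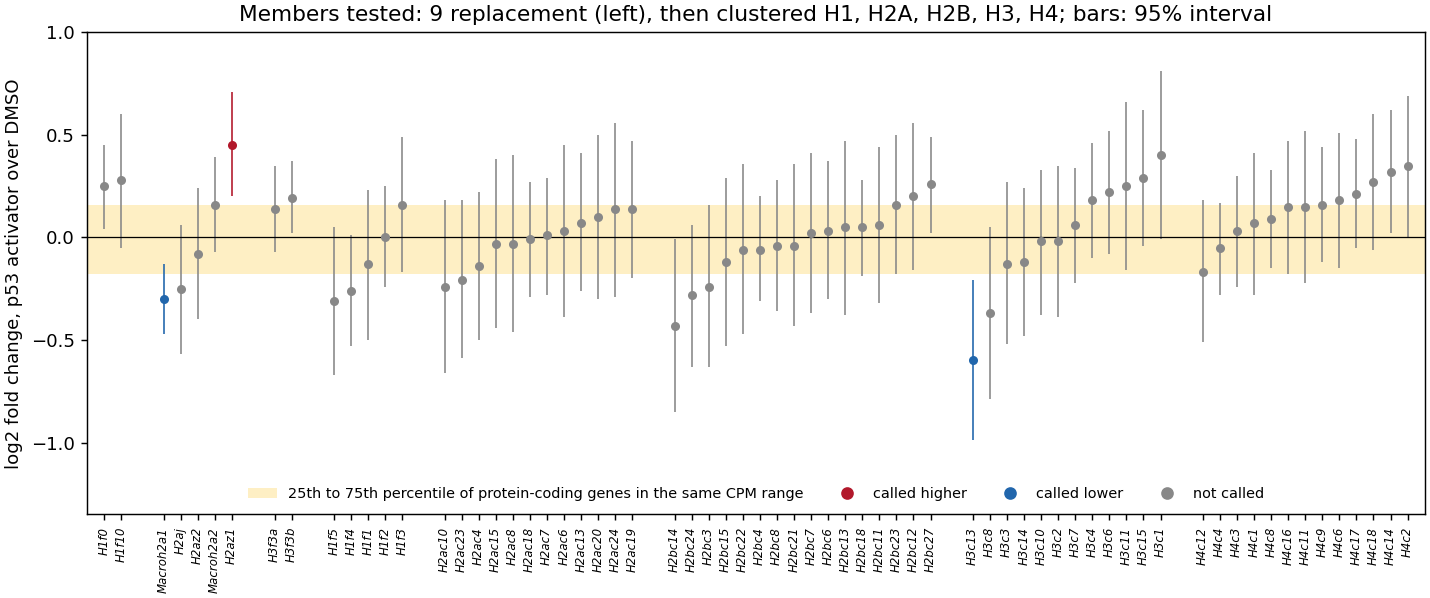
Log2 fold change (p53 activator over DMSO, on log2(CPM + 1)) of the 67 members tested, with limma's 95% interval, ordered within family and with replacement members at the left. The band runs from the 25th to the 75th percentile of protein-coding genes in the same CPM range (-0.18 to 0.16); H2az1 lies above 0, and Macroh2a1 and H3c13 below it, as the members called.

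H4, one of the 2 histones at the centre of every nucleosome, had the most one-sided clustered genes. The log2 fold change was positive for 11 of 13 H4 genes, with a median of 0.15 and 0 called by limma, 2 at an unadjusted p under 0.05. In the CPM range of the clustered genes 51.6% of protein-coding genes were positive, but that range reaches lower than most H4 genes. At a minimum of 5 CPM 10 of 12 H4 genes were positive, beside 23 of 32 clustered genes of all families. The median of all genes at that minimum was 0.09. Near-identical copies among the 13 are not separate observations. Scaled to the total of nuclear protein-coding genes, 8 of 13 were positive with a median of 0.02, and without DMSO replicate 2 the median was 0.05. Without DMSO replicate 1 all 13 were positive with a median of 0.29. H4c14 stood at 9.97 and 11.5 CPM with the activator and at 9.53 and 7.28 CPM with DMSO, a log2 fold change of 0.32 ± 0.15 (SE, limma adjusted p = 0.0872). It was called higher without DMSO replicate 1 (0.50, adjusted p = 0.0452). H4c4 stood at 20.4 and 25.6 CPM with the activator and at 26.4 and 21.2 CPM with DMSO, with groups that overlapped. H4c8 stood at 17.7 and 17.4 CPM with the activator and at 16.6 and 16.2 CPM with DMSO (log2 fold change 0.09). H4c17, H4c9 and H4c3 had log2 fold changes of 0.21, 0.16 and 0.03 and were not called. Summed, the 13 H4 genes came to 130 and 136 CPM with the activator and 134 and 111 CPM with DMSO.

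H3 forms the core tetramer with H4. The 12 clustered H3 genes had a median log2 fold change of 0.02 and summed to 60.5 and 64.3 CPM with the activator and 62.3 and 56.7 CPM with DMSO. H3c4 stood at 11.3 and 12.4 CPM with the activator and at 9.81 and 10.9 CPM with DMSO. Its groups did not overlap, and its log2 fold change of 0.18 ± 0.14 (SE) was not called (limma adjusted p = 0.334). The highest log2 fold change of a clustered gene was that of H3c1, at 1.99 and 2.03 CPM with the activator and 1.23 and 1.34 CPM with DMSO, 0.40 with a 95% interval of -0.01 to 0.81.

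H2A and H2B pair as dimers on the outside of the tetramer. The 12 clustered H2A genes tested had a median log2 fold change of 0.00, and the 16 H2B genes a median of -0.01. H2bc18 stood at 19.4 and 18.5 CPM with the activator and at 20.0 and 16.7 CPM with DMSO. H2bc4 stood at 15.6 and 13.2 CPM with the activator and at 15.1 and 14.8 CPM with DMSO. In H2bc18 the activator values lay between the DMSO values, in H2bc4 they lay on either side of them, and neither gene was called. H2bc27 stood at 20.7 and 20.5 CPM with the activator and at 18.2 and 16 CPM with DMSO, groups that did not overlap. Its log2 fold change of 0.26 ± 0.12 (SE) did not pass the test (limma adjusted p = 0.0840). It was 0.12 on the protein-coding total, 0.17 without DMSO replicate 2 and 0.34 without DMSO replicate 1. The symbol H2bc27 matched no annotation, so its sequence was not compared with other members. Its difference from H2bc18 and H2bc4 was not tested.

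The clustered linker histones H1f1 to H1f5 had a median log2 fold change of -0.13, which was -0.02 without p53 activator replicate 1, -0.05 without DMSO replicate 1 and -0.22 without DMSO replicate 2. H1f4 stood at 10.5 and 15.0 CPM with the activator and at 17 and 13.6 CPM with DMSO, a log2 fold change of -0.26 ± 0.14 (SE, limma adjusted p = 0.137). The groups overlapped, and activator replicate 1 was the lowest of the 4 libraries. The fall was called without p53 activator replicate 2 (-0.49, adjusted p = 0.0159), without DMSO replicate 2 (-0.41, adjusted p = 0.0476) and on scaling to protein-coding genes (-0.40, adjusted p = 0.0488). The value of H1f4 was -0.02 (adjusted p = 0.938) without p53 activator replicate 1 and -0.10 (adjusted p = 0.720) without DMSO replicate 1. H1f2 stood at 16.6 and 18.2 CPM with the activator and at 20.1 and 15.0 CPM with DMSO, with a log2 fold change of 0.00. As a family, clustered H1 came to 42.2 and 47.2 CPM with the activator and 52.9 and 43.5 CPM with DMSO, and replacement H1 to 35.7 and 39.0 CPM with the activator and 30.1 and 31.9 CPM with DMSO.

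The 7 clustered members below the limit were H2ac1, H2ac11, H2ac12, H2ac21, H2ac22, H2bc1 and H2bc9. H2ac1 and H2bc1, which encode the testis histones TH2A and TH2B, were among them. H2ac1 had 0 and 1 reads in the activator libraries and 0 and 0 in the DMSO libraries. H2bc1 had 1.10 and 0.339 CPM with the activator and 0.960 and 0.668 CPM with DMSO.

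Beside the sequence features, the 40 clustered members tested with a stem-loop match had a median log2 fold change of 0.05 and the 15 without a median of -0.04, and the only call, H3c13, was in the second set. The clustered genes on chromosome 13 (46 tested) had a median of 0.03 and those on chromosome 3 (9 tested) a median of 0.05. The 10 tested members with the octamer had a median of 0.00, with 5 positive and 5 negative. Members without a match include some whose annotated transcript ends at the coding sequence, so the stem-loop sets do not separate kinds of mRNA. All these sets were described and not tested against each other.

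Genes that make and process histone mRNA did not move as one. Slbp, the stem-loop binding protein, stood at 7.03 and 7.56 CPM with the activator and at 6.51 and 6.68 CPM with DMSO (log2 fold change 0.13 ± 0.16 SE, limma adjusted p = 0.585). Npat, the coactivator that switches on the clusters, stood at 48.5 and 45.7 CPM with the activator and at 49.4 and 47.6 CPM with DMSO (-0.04 ± 0.09 SE, limma adjusted p = 0.748), and Casp8ap2, encoding the FLASH protein that works with it, was not called (-0.15). Of the 20 genes tested, 4 rose and 1 fell, and the median was 0.13, beside 20.9% higher and 7.34% lower among nuclear protein-coding genes and 16.9% and 16.3% among all genes. Lsm11, a subunit specific to the U7 particle that cuts histone pre-mRNA, rose, with 147 and 138 CPM in the activator libraries and 107 and 123 CPM in the DMSO libraries (0.31 ± 0.08 SE, limma adjusted p = 0.00133). The cleavage factors Cpsf2 and Cstf2t and the cap-binding subunit Ncbp2 also rose, by 0.27, 0.35 and 0.37 on the log2 scale. Scaled to protein-coding genes, 1 member rose and 3 fell, while 2 rose in DESeq2 and 0 with 1 prior spread for genes at all levels.

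Pou2f1, which encodes the octamer-binding factor Oct-1, was the member of that list that fell. It stood at 55.7 and 53.9 CPM in the activator libraries and at 86.9 and 73.6 CPM in the DMSO libraries, a log2 difference of -0.54 ± 0.08 (SE, limma adjusted p = 2.62e-07). The fall was called under all 16 alternatives. H2bc18, whose octamer is printed above, had a log2 fold change of 0.05 with a 95% interval of -0.19 to 0.28. The 10 tested members with the octamer ranged from -0.43 (H2bc14, 95% interval -0.85 to -0.01) to 0.20 (H2bc12), with 5 positive and 5 negative. A link between Pou2f1 and these genes was not tested.

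**Figure D5:**
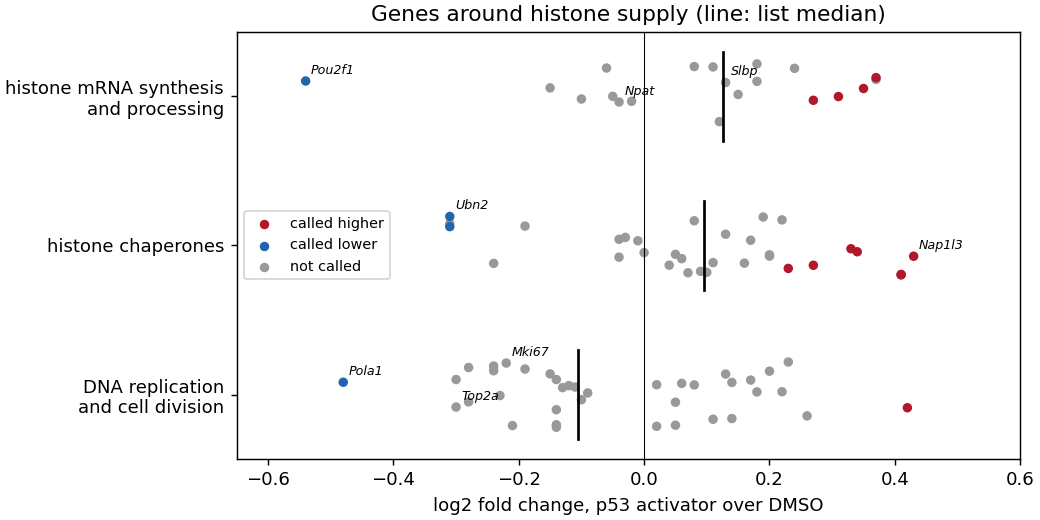
Log2 fold change (p53 activator over DMSO) of each tested gene in 3 lists, with the list median as a line and called genes coloured. The lists are histone mRNA synthesis and processing (20 genes), histone chaperones with some remodellers (32) and DNA replication and cell division (38). Pou2f1 lies farthest to the left and Nap1l3 farthest to the right.

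Histone chaperones carry histones to and from DNA, and the list of them used here also held chromatin remodellers, Ino80 among them. Of the 32 genes of that list tested, 7 rose and 2 fell, with a median of 0.10. That is near the 20.9% higher and 7.34% lower of nuclear protein-coding genes (16.9% and 16.3% of all genes). The 4 called genes of the nucleosome assembly protein family, which carries H2A and H2B, were Nap1l2, Nap1l3, Nap1l4 and Nap1l5, and all 4 rose, while Nap1l1 was not called (0.08). Nap1l3 stood at 70.5 and 66.5 CPM in the activator libraries and at 50.4 and 50.6 CPM in the DMSO libraries (0.43 ± 0.09 SE, limma adjusted p = 3.21e-05). Rbbp4 and Rbbp7, the histone-binding subunits shared by chromatin assembly and deacetylase complexes, rose by 0.41 and 0.34 on the log2 scale, and Set rose by 0.27. Ubn2, a subunit of the HIRA complex that deposits H3.3, fell, with 111 and 104 CPM in the activator libraries and 140 and 128 CPM in the DMSO libraries (-0.31 ± 0.08 SE, limma adjusted p = 0.000984). Ino80, the remodeller that acts on H2A.Z nucleosomes, fell too (-0.31). Scaled to protein-coding genes, 4 genes of the list rose and 5 fell. Without DMSO replicate 1 the count of falls was 0 and the call of Ubn2 was lost (-0.25, adjusted p = 0.0767), and without p53 activator replicate 2 there was 1 fall. With 1 prior spread for genes at all levels, 3 genes of the list rose and 0 fell, and Ubn2 was not called (adjusted p = 0.0894).

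Clustered histone genes are tied to S phase, so genes of DNA replication and division were set beside them. Of 38 tested, 1 rose and 1 fell, and the median was -0.11, beside 20.9% higher and 7.34% lower among nuclear protein-coding genes and 16.9% and 16.3% among all genes. All tested genes of the list but Mki67 lay in the CPM range of the clustered genes. In that range 5.05% of protein-coding genes were called higher and 7.92% lower. Falls numbered 3 under median-of-ratios scaling, both other totals, edgeR and the replicate block. Mki67, a marker of dividing cells, stood at 32.9 and 30.9 CPM in the activator libraries and at 37.6 and 37.1 CPM in the DMSO libraries (-0.22 ± 0.10 SE, limma adjusted p = 0.0632). Top2a, the topoisomerase of dividing cells, stood at 14 and 13.9 CPM with the activator and at 17.4 and 17.4 CPM with DMSO (-0.30 ± 0.12 SE, limma adjusted p = 0.0541). In both genes the activator libraries were below the DMSO libraries, and both were called lower on other scalings, at -0.37 (adjusted p = 0.00393) for Mki67 and -0.44 (adjusted p = 0.00861) for Top2a relative to protein-coding genes. Pcna, the sliding clamp of replication, stood at 14.1 and 14.1 CPM with the activator and at 13.1 and 12.2 CPM with DMSO (0.14, limma adjusted p = 0.427). Pola1, the polymerase that starts each DNA strand, fell (-0.48 ± 0.12 SE, limma adjusted p = 0.00121), and the flap nuclease Fen1 rose (0.42 ± 0.17 SE, limma adjusted p = 0.0465). The call of Fen1 was lost under 10 of 16 alternatives, and without DMSO replicate 1, DMSO replicate 2 or p53 activator replicate 1 its log2 fold change was 0.48, 0.36 and 0.29. The part of dividing cells in the histone values was not tested.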

How the data were processed

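Per the labels' protocols, TRIzol was used to isolate total RNA, from which ribosomal RNA was removed. The submitters' processing notes name TopHat2, Cufflinks 2.0.0 and mm9, with no role for any. Which program counted reads, with which annotation and strand setting, is not given in the sources used here. The authors deposited CPM per gene, a unit read from the values: each column is whole reads times 1 step, and whole reads were recovered for 100% of values within 0.01 reads. On those reads edgeR called 1786 genes higher and 2895 lower.

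Genes with at least 1 CPM in 2 libraries (16654) were tested with limma 3.58.1 (R 4.3.3) on log2(CPM + 1), trended empirical Bayes, two-sided, with Benjamini-Hochberg adjustment over all of them and calls at 0.05. The pseudocount understates changes of low genes. There were 2 residual and 98 prior degrees of freedom, so each SE, interval and p-value rested mostly on the spread of genes at like levels. The step was checked on simulated counts. edgeR 4.0.16 and DESeq2 1.42.0 ran on the recovered reads as alternatives.

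Members and lists were chosen with earlier results of these data known. Named were all called members, all replacement members, the 12 clustered members with most CPM, the called gene of each list with the smallest p in each direction, and Slbp, Npat, Casp8ap2, Mki67, Pcna and Top2a; other names were added after values were seen. RefSeq GRCm38.p6 and GENCODE vM21 gave sequences for 71 of 74 members by symbol; promoters were matched for 66.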

Additional observations from a re-analysis of the deposited data

How the results depend on the processing

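Across 16 alternatives and 34 named genes, no called change turned direction; 21 values lost their call, 21 gained one, and 23 changed sign with no call on either side. Over all genes, 2811 were higher and 2721 lower. The higher count was 302 when the spread did not follow expression, 1262 on a total without mitochondrial genes, 597 on the total of nuclear protein-coding genes, 1786 in edgeR and 1156 in DESeq2, and 1138 to 2122 with 1 library left out. The lower count was 1776 at a minimum of 5 CPM, 1585 in DESeq2 and 1445 to 2468 with 1 library left out. The share of calls that were higher was 50.8%, against 14% on the protein-coding total, 28% without mitochondrial genes, 38.2% in edgeR, 13.3% with no trend and 61.8% at 5 CPM. The protein-coding total put the median of all genes at -0.10, against 0.03.

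Clustered genes called higher, 0 of 58, became 1 (H3c1) with no trend and ranged from 0 to 2 with 1 library left out (2 without DMSO replicate 1, H4c14 and H4c2). Clustered genes called lower, 1, became 0 at 5 CPM, where H3c13 was not tested, 0 with no trend, 0 in DESeq2 and 2 on the protein-coding total (H1f4 and H3c13). With 1 library left out they ranged from 0 (without DMSO replicate 1 or p53 activator replicate 1) to 3 (without DMSO replicate 2 or p53 activator replicate 2). Replacement genes called higher, 1, became 0 on the protein-coding total and 0 in DESeq2, and ranged from 0 (without p53 activator replicate 1) to 2 (without DMSO replicate 1 or p53 activator replicate 2). Replacement genes called lower, 1, became 0 with no trend and stayed at 1 with any library left out. Beyond the tests' own construction, the cause was not tested. A fit that leaves out a library assumes that the lone sample varies like the other group.

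The groups share replicate numbers, but nothing in the labels ties equal numbers together. Across the genes tested, deviations from the group mean correlated at 0.12 between libraries of equal number. With the replicate block, 3705 genes were higher and 3132 lower, 2 clustered genes were higher (H2bc27 and H4c14) and 1 lower, and 3 replacement genes were higher (H1f0, H2az1 and H3f3b) and 1 lower. With 2 libraries a group, depth limits the clustered genes (37 and 45 reads for H3c13 with the activator, 67 and 49 with DMSO), and near-identical copies limit values of single genes further.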
